A study of Mus musculus with 6 samples.

Results

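Aquaporins are the membrane channels through which water, and in some members glycerol, crosses cells. Transcripts of 9 aquaporin genes (Aqp1, Aqp3, Aqp4, Aqp5, Aqp6, Aqp7, Aqp8, Aqp9 and Aqp11) were followed in mouse colon. A row of the array table was taken for a gene when the platform annotation gave that row this single symbol, and the row with the highest mean was kept. Each of the 9 genes had 1 such row, out of 23521 rows with a single symbol, which cover 22180 genes.

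Colonic epithelium draws water out of the gut lumen by following the salt it absorbs, and aquaporins let that water pass through the cell rather than between cells. Some members, the aquaglyceroporins Aqp3, Aqp7 and Aqp9, also carry glycerol. Other members serve blood vessels, red blood cells, fat, kidney, glands or leukocytes, so a piece of gut wall can hold aquaporin transcripts of several origins.

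The RNA came from 6 male BALB/c mice and was hybridised to 1 Affymetrix Mouse Gene 2.0 ST array each: 4 wild type (WT, Mthfd1S+/+) and 2 Mthfd1S+/-, which are heterozygous for a deficiency in the synthetase activity of the folate enzyme MTHFD1. Every animal, WT included, had received the colon carcinogen azoxymethane at 6 mg/kg and 2 cycles of 4 days with 3% dextran sulfate sodium, which injures the colonic lining, in weeks 1 and 4 after the injection. The tissue was colonic mucosa of normal appearance taken next to a tumour 13 weeks after the injection, from mice backcrossed for at least 10 generations; no untreated mouse was analysed here. The genotype field writes Mthfd1S+/- for the heterozygous mice, but their source field has Mthfd1+/- without the S; the genotype field is followed here. The age field reads 7 months, whereas the protocol puts the injection at 3 months.

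Values are log2 expression as the authors deposited them, so a difference of 1 is a doubling. Array medians lay between 5.48 and 5.53 and correlations between arrays over all rows between 0.986 and 0.990. Epithelial genes were bright, with the chloride exchanger Slc26a3 at 11.5 to 11.9 and the mucin Muc2 at 13.4 to 13.5. Smooth muscle genes were bright too (desmin, Des, 11.6 to 12.2), so these samples also held smooth muscle RNA. The Mthfd1 row read 7.64, 7.63, 7.496 and 7.75 in WT mice 1 to 4, against 7.96 and 7.63 in the Mthfd1S+/- mice; the groups overlapped, and what the allele does to the transcript is not stated in the labels, so this row does not check the genotypes. In bulk tissue, fewer cells of a type and less RNA per cell cannot be told apart.

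Upstream sequence is shown for 3 members: Aqp8, the water channel of surface colonocytes; Aqp1, the channel of vessel endothelium and red blood cells; and Aqp11, an intracellular channel of the endoplasmic reticulum that is counted with Aqp8 among the epithelial channels. The 250 bases before their annotated starts are given because Aqp1 and Aqp11 were the members whose genotype groups did not overlap, and Aqp8 is the colonocyte channel set against them. Sequences are from RefSeq (GRCm38.p6), written 5′ to 3′ along the gene's own strand, with capitals for exact matches, on either strand, to the GC box (GGGCGG), the E-box (CACGTG), the TATA box (TATAAA) or CCAAT.
Aqp8, chr7:123462044-123462293, plus strand: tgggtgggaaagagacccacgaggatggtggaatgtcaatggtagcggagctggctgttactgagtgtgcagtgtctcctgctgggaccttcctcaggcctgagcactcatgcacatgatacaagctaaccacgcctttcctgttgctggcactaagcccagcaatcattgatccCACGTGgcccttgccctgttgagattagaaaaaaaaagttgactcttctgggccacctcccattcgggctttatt
Aqp1, chr6:55336049-55336298, plus strand: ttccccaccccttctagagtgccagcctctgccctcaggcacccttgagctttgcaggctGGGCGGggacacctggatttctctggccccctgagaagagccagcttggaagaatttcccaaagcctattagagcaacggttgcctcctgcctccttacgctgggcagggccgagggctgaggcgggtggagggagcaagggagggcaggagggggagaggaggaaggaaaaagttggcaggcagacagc
Aqp11, chr7:97738248-97738497, minus strand: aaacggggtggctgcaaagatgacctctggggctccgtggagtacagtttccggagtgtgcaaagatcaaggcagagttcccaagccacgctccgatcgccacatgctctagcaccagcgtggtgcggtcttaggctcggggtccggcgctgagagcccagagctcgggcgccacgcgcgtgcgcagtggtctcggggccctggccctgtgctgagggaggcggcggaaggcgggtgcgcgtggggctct
The window of Aqp1 held a single GC box 190 bases before the start, a motif found in 32.7% of all 32851 windows of this length. The window of Aqp8 held a single E-box 75 bases before the start (6.02% of windows), and that of Aqp11 held none of the 4 motifs (TATAAA was in 12.4% and CCAAT in 33.8% of windows). The window of Aqp8 was 52.4% G and C, that of Aqp1 62.0% and that of Aqp11 67.2%, against a median of 52.4% over all windows. Windows of 8 members were searched, and Aqp4 was left out of the search. Of these 8, 6 had a single window and the rest more than 1. Among them the GC box was found for Aqp1, Aqp3 and Aqp5, the E-box for Aqp5, Aqp6 and Aqp8, and TATAAA for Aqp3. In the order of protein-coding genes Aqp3 and Aqp7 were next to each other on chromosome 4, and Aqp5 and Aqp6 on chromosome 15.

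The comparison of genotypes addresses whether the synthetase deficiency goes with other transcript levels. None of the 9 aquaporins passed the adjusted threshold of 0.05 in limma, nor did any of the 23521 rows (0%; the same count of 0 came from unmoderated least squares). Without adjustment, 1363 rows (5.79%) had a p under 0.05. Aqp1 and Aqp11 were among these, both higher in the Mthfd1S+/- mice, so 2 of 9 members stood at this level, where 3.36% of all rows were higher and 2.44% lower. This balance moved with the scaling and the rows tested: 790 of the 1363 were higher here, 1110 of 1511 with median-centred arrays, 1078 of 1510 after another quantile normalization, and 935 of 2600 over all rows of the table, where the lower ones outnumbered the higher. The same 2 members were those whose groups did not overlap, against 14% of all rows (7.96% with Mthfd1S+/- above WT and 6.04% below). In sign, 4 members were higher (Aqp1, Aqp3, Aqp8 and Aqp11) and 5 lower, with a median of -0.0098, beside 54% higher, 46% lower and a median of 0.012 over all rows.

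**Figure D1:**
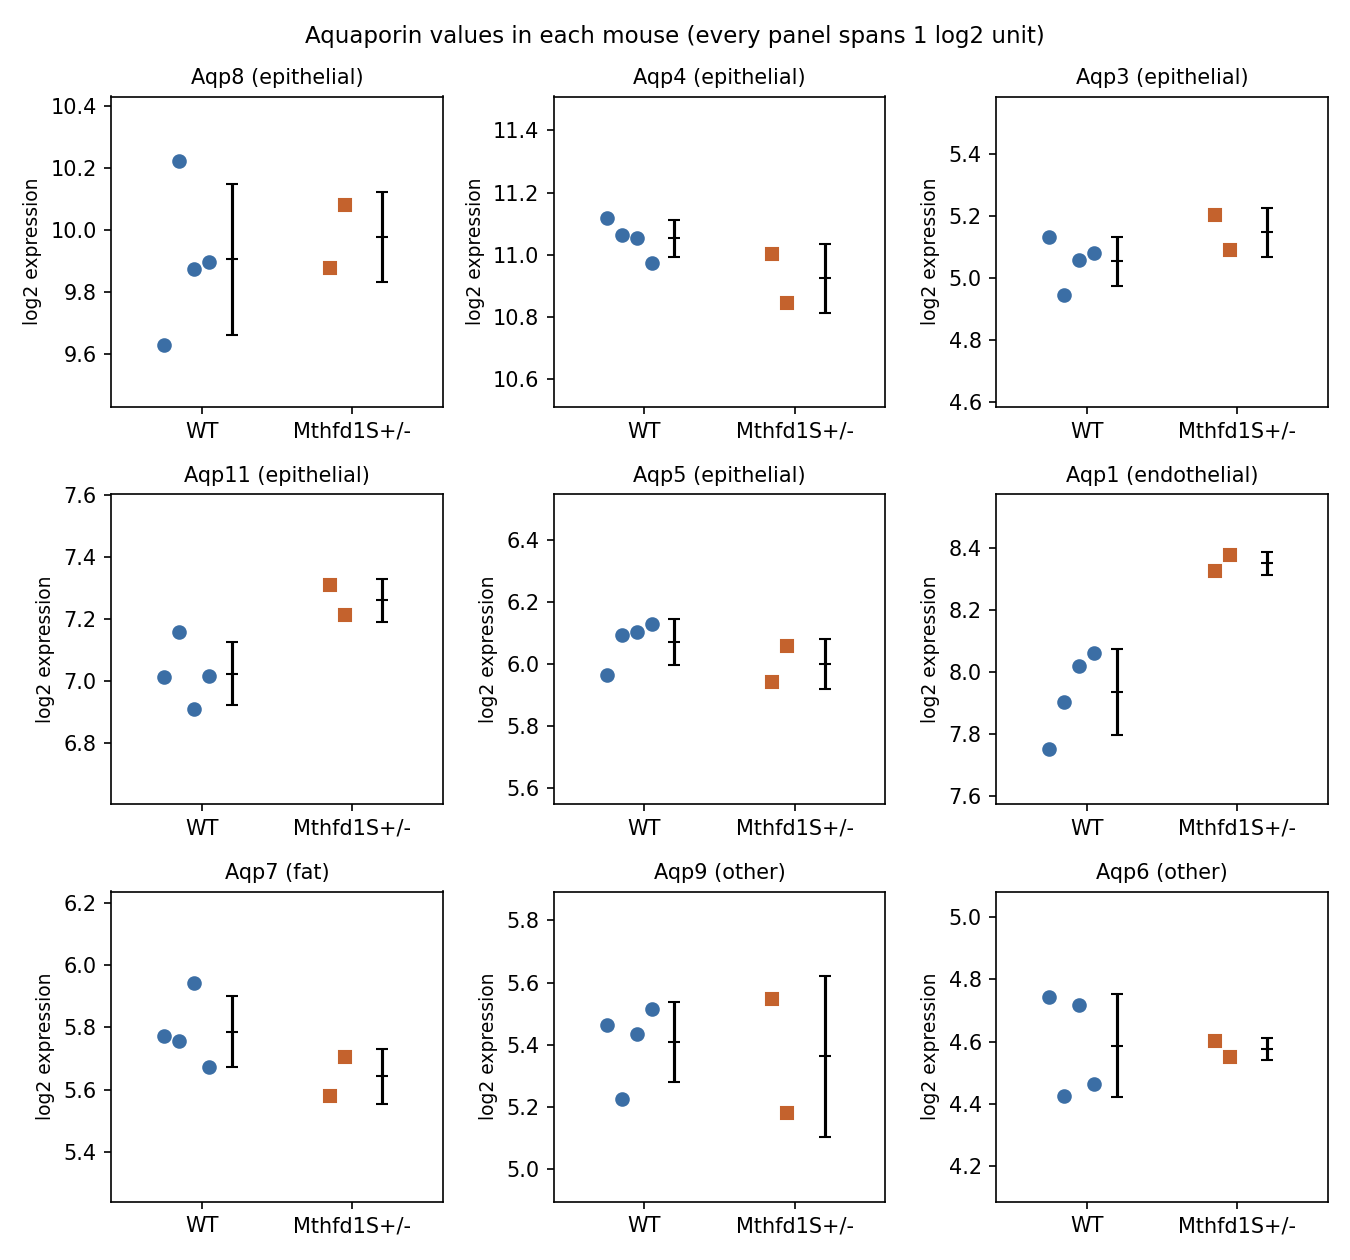
The deposited log2 expression of each aquaporin is plotted for the 4 WT mice (circles) and the 2 Mthfd1S+/- mice (squares), with the group mean and SD beside them; points are set apart sideways only so that they can be seen, and every panel spans 1 log2 unit. The squares lie above every circle for Aqp1 and Aqp11 alone.

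Among the epithelial channels, Aqp8 is the one known from the surface of colonocytes. It read 9.63, 10.22, 9.87 and 9.90 in WT mice 1 to 4, against 9.88 and 10.08 in the Mthfd1S+/- mice. Both Mthfd1S+/- values lay inside the WT range, whose ends were WT mouse 1 and WT mouse 2. Group means were 9.91 ± 0.24 (SD, n = 4) and 9.98 ± 0.14 (SD, n = 2), a log2 difference of 0.072 ± 0.15 (SE) with a limma adjusted p of 0.964. The unadjusted 95% interval of the ratio ran from 0.824 to 1.34, so changes within that span are not excluded by these 6 arrays. Aqp8 had the widest WT range of the 9 members, 0.59 log2 units or 1.51-fold between mice of the same genotype.

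Aqp4, a channel of the basolateral membrane of epithelia that is also the main aquaporin of glia, read 11.12, 11.06, 11.05 and 10.97 in WT mice 1 to 4, against 11.003 and 10.85 in the Mthfd1S+/- mice. The overlap came down to a single pair, with WT mouse 4 below Mthfd1S+/- mouse 1. The log2 difference was -0.13 ± 0.089 (SE; limma adjusted p 0.885). WT mice lay within 0.14 log2 units of each other, the narrowest WT range among the members. Without Mthfd1S+/- mouse 2 the value was -0.049, and without mouse 1 it was -0.21.

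Aqp3, an aquaglyceroporin of the basolateral membrane, read 5.13, 4.94, 5.06 and 5.08 in WT and 5.20 and 5.09 in Mthfd1S+/- mucosa. The groups overlapped, and the log2 difference was 0.094 ± 0.090 (SE; limma adjusted p 0.919). Aqp5, the channel of secretory glands and airways, read 5.96, 6.09, 6.10 and 6.13 in WT and 5.94 and 6.06 in Mthfd1S+/- mice, also with overlap, and differed by -0.072 ± 0.088 (SE; 0.945). Mean values of Aqp3, Aqp6, Aqp7 and Aqp9 lay below 5.97, the median of all tested rows. Detection calls were not used here, so for such dim rows the transcript cannot be told from background; probes also differ in brightness, and no order of abundance among aquaporins is drawn.

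Aqp11, the channel of the endoplasmic reticulum, read 7.01, 7.16, 6.91 and 7.02 in WT mice 1 to 4, against 7.31 and 7.21 in the Mthfd1S+/- mice. Both Mthfd1S+/- values exceeded every WT value, with a gap of 0.054 between the nearest mice of each group. Means were 7.02 ± 0.10 (SD, n = 4) and 7.26 ± 0.069 (SD, n = 2). The log2 difference of 0.24 ± 0.095 (SE), or 1.18-fold, had an unadjusted p of 0.0362 and an adjusted p of 0.837 in limma. An exact two-sided permutation test gave p = 0.0667, the smallest the 15 splits of 6 mice into 4 and 2 allow. With single mice left out, the unadjusted limma p was 0.019 without WT mouse 2 and lay between 0.0543 and 0.172 without any of the others. It was 0.0577 with the letter of the mouse identifier (A in mouse 1 of each genotype, B in the rest) as a covariate, and 0.203 when mice were blocked by replicate number.

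Aqp1, which lets water cross vessel walls, showed the largest difference of the 9 members. It read 7.75, 7.90, 8.02 and 8.06 in WT mice 1 to 4, against 8.32 and 8.38 in the Mthfd1S+/- mice. The groups did not overlap, and the gap between the nearest mice, 0.26, was smaller than the WT range of 0.31. Means were 7.93 ± 0.14 (SD, n = 4) and 8.35 ± 0.038 (SD, n = 2), a log2 difference of 0.42 ± 0.11 (SE) or 1.33-fold. The unadjusted limma p was 0.00386, the adjusted p 0.837, and the exact two-sided permutation p again 0.0667. The unadjusted 95% interval of the ratio was 1.13 to 1.58. With each mouse left out in turn the log2 difference stayed between 0.36 and 0.46 and the unadjusted p between 0.00332 and 0.0279.

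**Figure D2:**
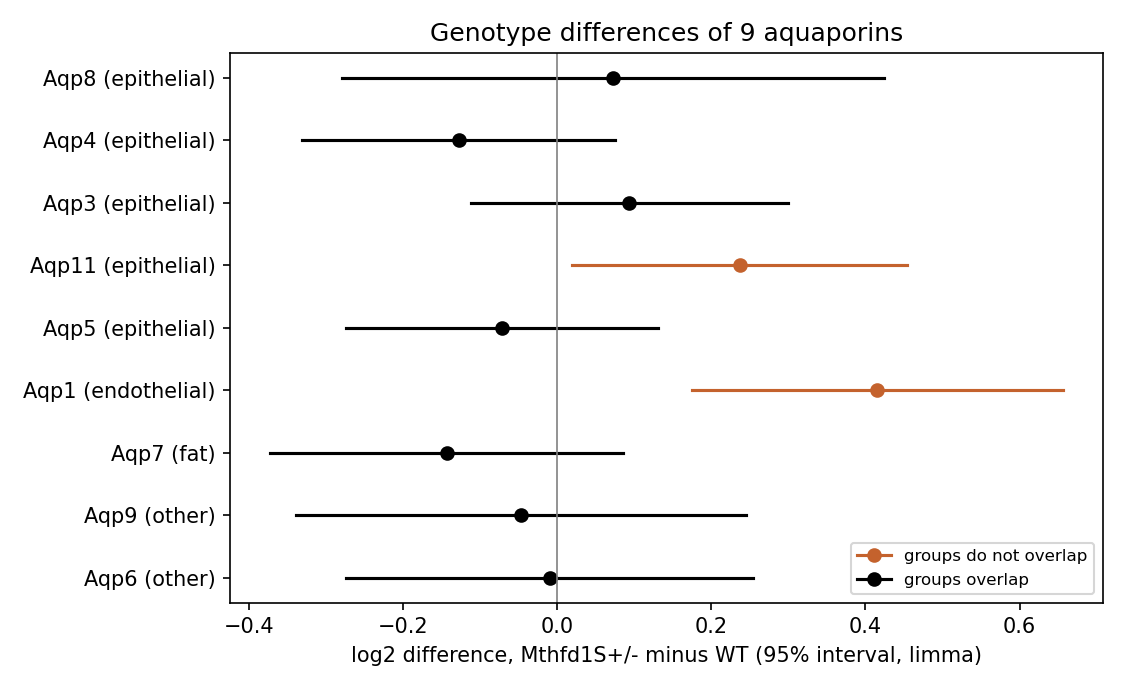
The log2 difference, Mthfd1S+/- minus WT, of each aquaporin is drawn as a point with its unadjusted 95% interval from limma, and the sets of channels are given beside the names. Only the intervals of Aqp1 (0.18 to 0.66 on the log2 scale) and Aqp11 (0.019 to 0.45) leave out 0.

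Genes that mark vessel endothelium lay near 0 as a list, unlike Aqp1. Among 13 endothelial markers, 4 stood higher and 9 lower in Mthfd1S+/- mucosa, with a median log2 difference of -0.012. Over all rows 54% were higher. None of the 13 was at an unadjusted limma p under 0.05, which is near the share of 5.79% over all rows. Groups did not overlap for 1 of the 13, against 14% of all rows. The sign of the median was not stable: it was 0.011 after another quantile normalization and 0.015 with median-centred arrays. With single mice left out it ran from -0.057 to 0.037. A single marker separated the groups. That gene was Plvap, of fenestrated vessels, with 0.16 ± 0.083 (SE). It read 8.76 and 8.89 in the Mthfd1S+/- mice, against at most 8.70 in WT. The junction proteins Cldn5 and Cdh5 had 0.14 ± 0.15 and 0.080 ± 0.091, and the adhesion molecule Pecam1 -0.012 ± 0.090. The mean level of the list was 7.0 to 7.17 in WT and 7.02 and 7.10 in the Mthfd1S+/- mice. With each gene centred on its mean over the 6 mice, Aqp1 less the endothelial mean was -0.30, -0.12, -0.17 and 0.043 in WT mice 1 to 4, against 0.29 and 0.26 in the Mthfd1S+/- mice, and these groups did not overlap either; this subtraction is a description and carries no test. Of the red blood cell markers only Slc4a1, their anion exchanger, was among the rows used; it had 0.13 ± 0.099 (SE).

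Markers of other layers of the gut wall stood higher along with Aqp1. All 4 mesothelial markers were higher in Mthfd1S+/- mucosa (median 0.25), with Msln at 0.28 ± 0.090 (SE), Upk3b at 0.48 ± 0.18 and Lrrn4 at 0.22 ± 0.10. The mean level of these dim rows was 5.08 to 5.19 in WT and 5.29 and 5.55 in the Mthfd1S+/- mice. All 8 smooth muscle markers were higher (median 0.20), including Mylk at 0.30 ± 0.13, Myh11 at 0.25 ± 0.13 and Cnn1 at 0.22 ± 0.14, and so were all 7 fibroblast markers (median 0.12; Mfap4 0.58 ± 0.23, Lum 0.42 ± 0.18, Dcn 0.21 ± 0.12). All 6 enteric neuron and glia markers were higher too (median 0.15; Gfap 0.30 ± 0.12, Prph 0.57 ± 0.23, Sox10 0.12 ± 0.097). Of these, Gfap, Sox10, S100b and Elavl4 had means below 5.97, the median of all tested rows, as did all 4 mesothelial markers. Transcript cannot be told from background in such dim rows, which are included in the counts that follow. Across these 4 lists 6 of 25 genes were at an unadjusted limma p under 0.05 and 0 passed the adjusted threshold, and 25 of 25 were higher; over all rows 5.79% were at that p (3.36% higher) and 54% were higher.

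Mthfd1S+/- mouse 2 was the highest of the 6 mice in each of the 4 lists. Its centred smooth muscle mean was 0.33, while that of Mthfd1S+/- mouse 1 was -0.053, inside the WT span of -0.24 to 0.11. Aqp1 was high in both mice, at 0.25 and 0.30 above its mean, and without mouse 2 its difference was 0.39. The smooth muscle median was then 0.022, the mesothelial 0.12 and the enteric 0.063, while without mouse 1 the smooth muscle and enteric medians were 0.40 and 0.31. The fibroblast median was 0.20 without WT mouse 3. Unlike the endothelial mean, these lists left overlapping groups when taken from Aqp1. Aqp1 less the smooth muscle mean was -0.20, 0.072, -0.031 and -0.13 in WT mice 1 to 4, against 0.30 and -0.022 in the Mthfd1S+/- mice. Less the mesothelial mean it was at most 0.052 in WT (mouse 3), against 0.20 and -0.0051, and less the fibroblast mean at most 0.14 in WT (mouse 2), against 0.19 and 0.070. In all 3 subtractions Mthfd1S+/- mouse 2 lay below the highest WT mouse and mouse 1 above it. The part of these cell types in the Aqp1 value was not tested.

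**Figure D3:**
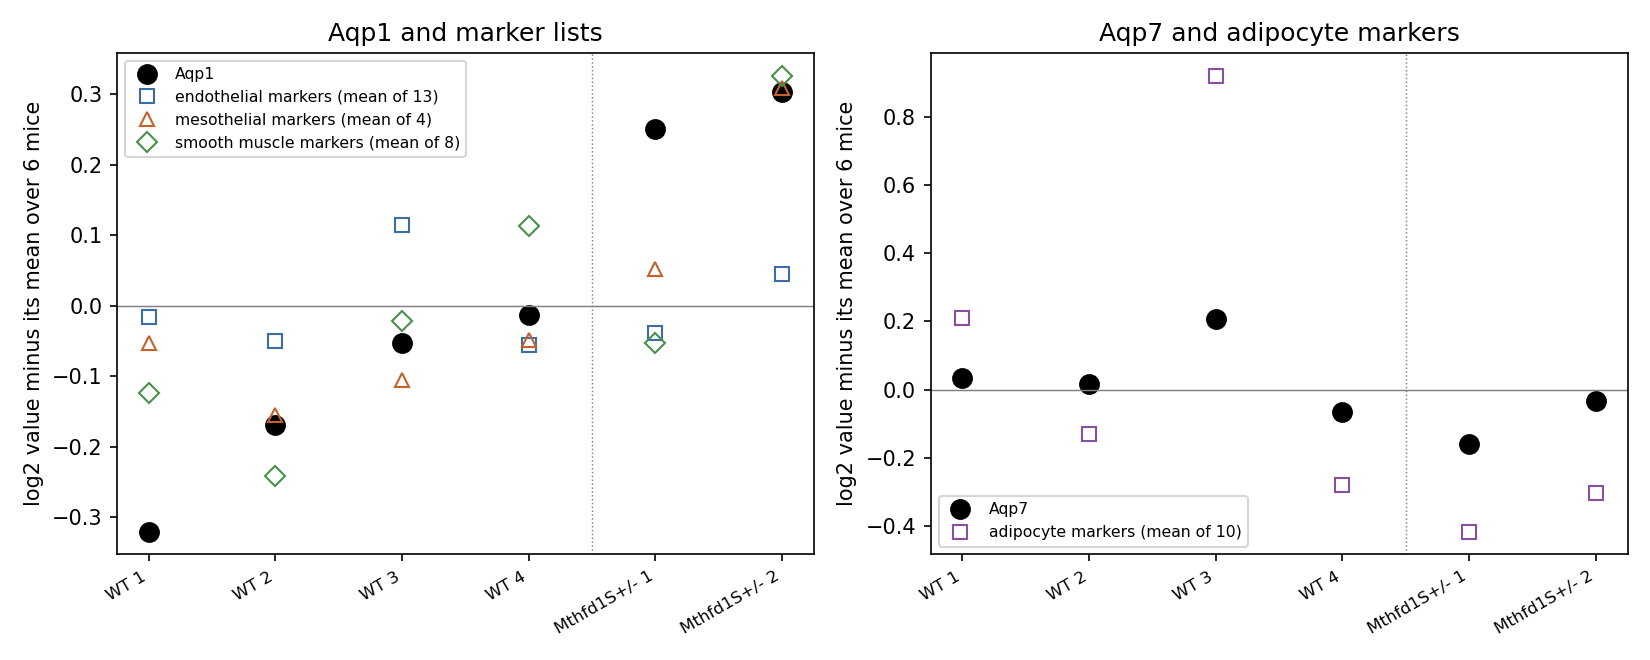
Centred log2 values, each gene minus its mean over the 6 mice, are plotted per mouse for Aqp1 with the means of 3 marker lists (left) and for Aqp7 with the adipocyte marker mean (right). Aqp1 is high in both Mthfd1S+/- mice, where the endothelial mean is -0.038 and 0.046; Aqp7 and the adipocyte mean are both highest in WT mouse 3 and both lowest in Mthfd1S+/- mouse 1.

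Aqp7, the aquaglyceroporin through which fat cells release glycerol, read 5.77, 5.76, 5.94 and 5.67 in WT mice 1 to 4, against 5.58 and 5.71 in the Mthfd1S+/- mice. WT mouse 3 was the highest and Mthfd1S+/- mouse 1 the lowest, and the groups overlapped. The log2 difference was -0.14 ± 0.10 (SE; limma adjusted p 0.887). Adipocyte markers were lower in 7 of 10 (median -0.44), with Car3 at -2.13 ± 0.93 (SE) and Plin1 at -0.35 ± 0.15, while Cidea had 0.38 ± 0.13. Their centred mean was 0.92 in WT mouse 3, while WT mice 1, 2 and 4 had 0.21, -0.13 and -0.28 and the Mthfd1S+/- mice -0.42 and -0.30. The order of the mice, highest first, was WT 3, WT 1, WT 2 for both Aqp7 and the markers, and Mthfd1S+/- mouse 1 came last in both. Between them, WT mouse 4 and Mthfd1S+/- mouse 2 changed places. Aqp7 varied far less, over 0.36 log2 units. Aqp7 less the adipocyte mean was -0.18, 0.15, -0.71 and 0.21 in WT mice 1 to 4, against 0.26 and 0.27 in the Mthfd1S+/- mice. These groups did not overlap, and the subtraction carries no test. The Aqp7 row is dim (mean 5.74), so its transcript cannot be told from background. Without WT mouse 3 the adipocyte median was -0.24 and Aqp7 stood at -0.091. Of 14 genes of glycerol and fat turnover, 6 were higher and 8 lower (median -0.025, turning to 0.0025 with median-centred arrays and between -0.10 and 0.0064 with single mice left out); besides Plin1, the smallest unadjusted p values belonged to Dgat2, of triglyceride synthesis (-0.23 ± 0.11), and Mgll, which frees the last fatty acid (0.21 ± 0.13).

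Aqp9, an aquaglyceroporin of hepatocytes and leukocytes, read 5.46, 5.22, 5.43 and 5.51 in WT and 5.55 and 5.18 in Mthfd1S+/- mice. The 2 Mthfd1S+/- mice were the highest and the lowest of all 6, so the group difference of -0.047 ± 0.13 (SE; limma adjusted p 0.974) averages opposite values. Of 9 neutrophil markers 5 were higher and 4 lower (median 0.021, but between -0.11 and 0.10 with single mice left out), and their centred mean was likewise highest in Mthfd1S+/- mouse 1 (0.15) and lowest in mouse 2 (-0.19). The marker genes with the smallest unadjusted p were Ly6g (-0.69 ± 0.39), Elane (0.19 ± 0.11) and Csf3r (0.14 ± 0.096). Apart from Ly6g, all neutrophil markers had means below 5.97, the median of all tested rows, as did Aqp9. Transcript cannot be told from background in such dim rows. Aqp6, an intracellular channel of acid-secreting kidney cells, read 4.74, 4.43, 4.72 and 4.46 in WT and 4.602 and 4.55 in Mthfd1S+/- mucosa. These lay within the WT range, and the log2 difference was -0.0098 ± 0.12 (SE; 0.995), with the sign turning when arrays were median-centred (0.017) or quantile normalized again (0.018).

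Set side by side within each mouse, the mean of the 5 epithelial channels (Aqp3, Aqp4, Aqp5, Aqp8 and Aqp11) averaged opposite differences, from 0.24 for Aqp11 to -0.13 for Aqp4. It was -0.064, 0.061, -0.035 and -0.016 in WT mice 1 to 4, against 0.032 and 0.022 in the Mthfd1S+/- mice, as centred log2 values. Aqp1, placed in the endothelial set by its known site and not by these values, stood at -0.32, -0.17, -0.053 and -0.013 in WT. In the Mthfd1S+/- mice it stood at 0.25 and 0.30. The epithelial mean less Aqp1 was thus 0.26, 0.23, 0.018 and -0.0033 in WT and -0.22 and -0.28 in Mthfd1S+/- mucosa, with no overlap between groups. The epithelial mean differed by only 0.041 between genotypes and Aqp1 by 0.42, so this separation restates that of Aqp1 and is no second result. The epithelial mean less Aqp7 of fat was -0.098, 0.044, -0.24 and 0.051 in WT and 0.19 and 0.055 in the Mthfd1S+/- mice. Here too the groups did not overlap, though WT mouse 4 and Mthfd1S+/- mouse 2 were only 0.0040 apart. These values describe sets of genes chosen by where they are known to act and carry no test.

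**Figure D4:**
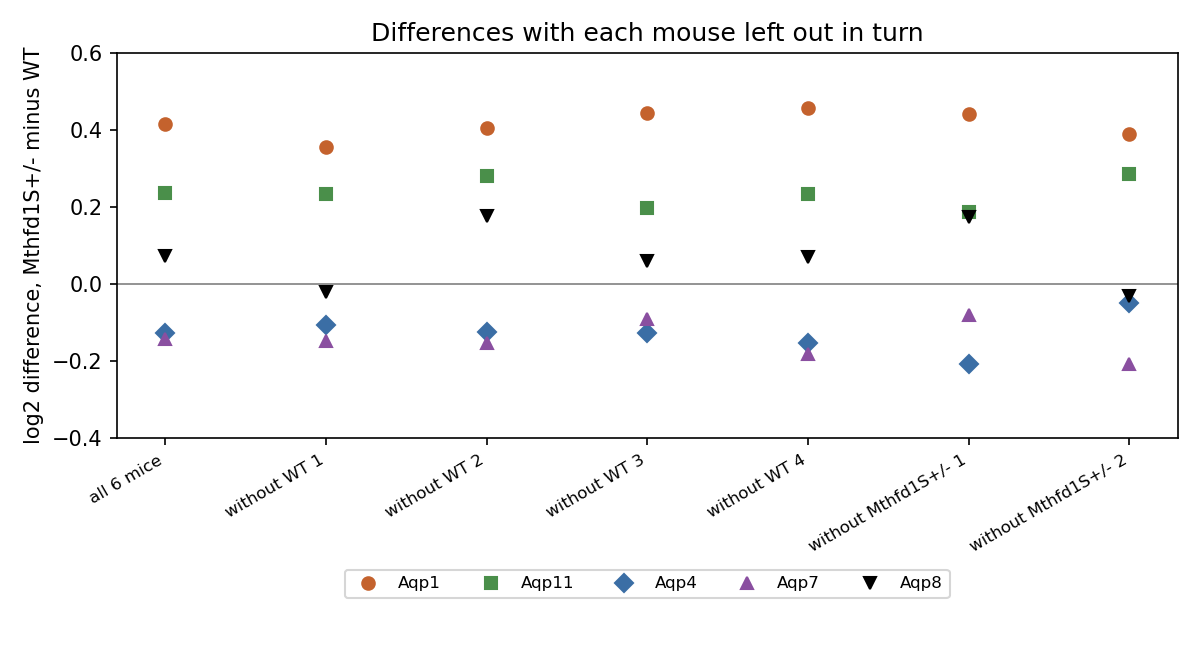
The log2 difference, Mthfd1S+/- minus WT, is plotted for 5 aquaporins with all 6 mice and with each mouse left out in turn. Aqp1 stays between 0.36 and 0.46 and Aqp11 between 0.19 and 0.29, while Aqp8 lies on both sides of 0 (-0.030 to 0.18).

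Genes that make the salt gradient followed by water were near 0 as a list. In the Mthfd1S+/- mice 15 of 24 stood higher and 9 lower, with a median log2 difference of 0.018, where 54% of all rows were higher. At an unadjusted limma p under 0.05 there was 1 in each direction, beside 3.36% of all rows higher and 2.44% lower. The adjusted threshold was passed by 0. The proton pump subunit Atp12a had -0.84 ± 0.36 (SE); it read 6.31 in WT mouse 4, below both Mthfd1S+/- mice (6.60 and 6.37), and 7.58 to 7.70 in the other WT mice. The sodium-potassium-chloride cotransporter Slc12a2 had 0.23 ± 0.10 and the epithelial sodium channel subunit Scnn1g 0.22 ± 0.097, both without overlap between groups. Such separation was found for 3 of the 24 genes, against 14% of all rows. Slc26a3 had -0.052 ± 0.15 and the sodium-proton exchanger Slc9a3 0.12 ± 0.14.

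Partners and regulators of aquaporins, such as the dystrophin complex that anchors Aqp4 and the neuropeptide Vip, which drives fluid secretion, had 8 of 13 higher and a median of 0.030, which was 0.079 without Mthfd1S+/- mouse 1 and turned to -0.030 without mouse 2. The hypoxia transcription factor subunit Hif1a had -0.44 ± 0.13 (SE, unadjusted limma p 0.00721, adjusted 0.837), with 9.51, 9.15, 9.28 and 9.25 in WT and 8.998 and 8.72 in Mthfd1S+/- mice. Vipr2, a receptor for Vip, had 0.29 ± 0.13 and Vip itself 0.33 ± 0.18. Absorptive colonocyte markers were lower in 11 of 13, where 46% of all rows were lower. Their median of -0.038 became -0.14 without Mthfd1S+/- mouse 1 and -0.076 without WT mouse 1. It was -0.026 without Mthfd1S+/- mouse 2 and -0.011 with median-centred arrays. Clca4a had -0.52 ± 0.20, Vil1 -0.20 ± 0.11 and Emp1 -0.35 ± 0.21, while Aqp8, known from the same cells, had 0.072. Goblet cell markers had 2 of 8 higher (median -0.0063; Spink4 -0.31 ± 0.10, Fcgbp -0.14 ± 0.16, Agr2 0.049 ± 0.084). Posterior Hox genes, which mark the distal gut, had 3 of 7 higher (median -0.018; Hoxd10 0.27 ± 0.084, Hoxd13 -0.59 ± 0.30, Hoxb13 -0.23 ± 0.15). The goblet and Hox medians turned to 0.021 and 0.0095 with median-centred arrays and to 0.0093 and 0.0071 after another quantile normalization; with single mice left out they ran from -0.070 to 0.050 and from -0.061 to 0.055.

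Other family genes, 3 in number, were on the array. Mip, the lens aquaporin, had a pair of rows, both higher in Mthfd1S+/- mucosa without overlap, at 0.30 ± 0.13 (SE, unadjusted limma p 0.0467) and 0.27 ± 0.10 (0.0263), each with an adjusted p of 0.837. Over all rows 14% did not overlap, 7.96% with Mthfd1S+/- above WT. The brighter row of Mip read 5.85, 6.03, 6.24 and 6.22 in WT and 6.49 and 6.28 in Mthfd1S+/- mice. Aqp12, of pancreatic acinar cells, had 0.16 ± 0.14, and the kidney water channel Aqp2 -0.0086 ± 0.13. Means of the other Mip row (5.24), Aqp12 (5.87) and Aqp2 (5.69) lay below 5.97, the median of all tested rows. The brighter Mip row (6.19) was little above it. Transcript cannot be told from background in such dim rows.

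No aquaporin spanned more than 1 log2 unit over the 6 mice; the widest were Aqp1 (0.62) and Aqp8 (0.59). Likeness to them was measured over the 6 mice as the root mean square difference of centred log2 values, among 19397 rows of protein-coding genes. Closest to Aqp1 were Susd2 (0.034), Slc12a4, a potassium-chloride cotransporter (0.041), the vomeronasal receptor Vmn1r159 (0.055), the autophagy protein Map1lc3a (0.056) and the neurotrophin receptor Ngfr (0.056), where Aqp1 itself varied by 0.22 around its mean. Closest to Aqp8, which varied by 0.19, were Deaf1 (0.050), Tbc1d12 (0.050), Bbox1 (0.053), Vmn1r61 (0.062) and Gpr162 (0.064). Means of Slc12a4 (4.91), Bbox1 (3.61), Vmn1r61 (1.80) and Gpr162 (5.57) lay below 5.97, the median of all tested rows. Transcript cannot be told from background in such dim rows. With 6 mice and this many rows some profiles lie close, so these names are a description.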

How the data were processed

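Per the labels, total RNA of frozen colon was extracted with a column kit and DNase digestion, and 1 array was run per mouse. The authors deposited log2 values per transcript cluster, made in Affymetrix Expression Console according to the submitters' notes; version, summarisation method, background treatment and build were not given in the sources used here. Values from 1.06 to 13.51 point to log2, and a change that normalization removed from all genes cannot be seen.

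Of 41345 rows, 23521 had a single gene symbol in the platform table and were tested; 1814 had several and 16010 none. All 9 members matched the RefSeq gene table. Differences are from limma 3.58.1 in R 4.3.3 (lmFit, eBayes, no covariate, two-sided, 4 residual and 4.35 prior degrees of freedom), with Benjamini-Hochberg adjustment over all tested rows; no p was adjusted over the aquaporins alone. The steps were tested on simulated data. The arrays are biological replicates per the labels, and their number limits the precision.

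The aquaporins, the sets of channels and the gene lists were chosen with earlier results of these data known. In each list the 3 genes with the smallest unadjusted p were named; Pecam1, Slc26a3, Slc9a3, Muc2 and Des were named besides, after their values were seen. A gene with several rows was read from its brightest. Alternatives covered normalization, centring, rows tested, test, covariates and single mice.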

Additional observations from a re-analysis of the deposited data

How the results depend on the processing

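The 9 aquaporin differences were recomputed under 14 other settings, and 0 of these 125 values passed the adjusted threshold in limma or least squares; 116 kept their direction. Aqp1, Aqp3, Aqp4, Aqp5, Aqp7 and Aqp11 kept theirs in every setting run; Aqp6 had no value where the dimmest rows, to which it belongs, were left out. Aqp6 turned to 0.018 after another quantile normalization and 0.017 with median-centred arrays. With single mice left out, Aqp6 ran from -0.064 to 0.042, Aqp8 from -0.030 to 0.18 and Aqp9 from -0.23 to 0.14. The unadjusted count of 1363 rows was 2600 over all rows of the table, where more rows were tested; 935 of those were higher, against 790 of 1363. Replicate numbers 1 and 2 are shared by the groups. Deviations of same-numbered mice from their group means correlated at 0.12 (the mice numbered 1, which also share the identifier letter A) and -0.044. With 2 Mthfd1S+/- mice, their deviations mirror each other, and crossed pairs gave the same values with opposite sign. The check therefore cannot decide whether the numbers pair the mice. With the replicate number as a block, 2331 rows (1316 of them higher) were at an unadjusted limma p under 0.05. Aqp1 had 0.52 (limma adjusted p 0.215), Aqp11 0.18 (unadjusted limma p 0.203) and Aqp9 turned to 0.018. Numbers 3 and 4 occur only in WT, so this setting compares mice 1 and 2 of each genotype and sets WT mice 3 and 4 aside. It leaves fewer residual degrees of freedom than the main fit. Its p-values therefore rest more on the limma prior and less on the spread between mice, and its larger count is no gain in power. No other row was used per gene, since each aquaporin had a single one.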
